A study of Rattus norvegicus with 20 samples.

Results

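GIRK potassium channels are the G protein-gated inward rectifiers, and their mRNA is given here in the hippocampus of 20 female rats at 4 months of age. Their 4 genes, Kcnj3, Kcnj5, Kcnj6 and Kcnj9, were found by symbol and make up 4 of the 17168 symbols in the expression tables. The family was selected on results already known for these rats, namely the differences of the TGNT from the WTNT rats and of the TGTR from the TGNT rats. The differences of the 4 genes are therefore given as a description, with no test.

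WTNT rats were untreated wild-type Fisher 344 rats. TGNT rats were untreated TgF344-AD rats, a model of Alzheimer's disease on the Fisher 344 background that carries a human Swedish-mutant amyloid precursor protein transgene and a second human transgene, both driven by the prion promoter. TGTR rats were TgF344-AD rats that ate chow with diazoxide, an opener of ATP-sensitive potassium channels, and dibenzoylmethane, a plant diketone, from day 52 of age. One table of RNA-seq counts held 5 WTNT and 5 TGNT rats, here the genotype table, and another held 4 TGNT and 6 TGTR rats, here the treatment table. The question of the genotype table was which genes differ early in the disease model, and that of the treatment table was what the combined treatment changes in it. Each rat gave 1 library of stranded mRNA. The sample labels name the left hippocampus, while the study's methods name the right.

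GIRK channels are tetramers that open when G protein beta-gamma subunits, freed by receptors coupled to inhibitory G proteins, bind them together with the membrane lipid PIP2. The potassium current that follows holds neurons away from firing threshold. In hippocampal pyramidal and granule cells the channels carry slow postsynaptic inhibition through GABA-B, adenosine and serotonin receptors. GIRK1, from Kcnj3, does not form working channels alone and pairs with another subunit. GIRK2, from Kcnj6, brings channels to the cell surface, and GIRK3, from Kcnj9, directs them into the endosomal sorting route. GIRK4, from Kcnj5, is best known as the partner of GIRK1 in the atria of the heart.

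Levels are RPM, reads per 1000000, which the authors scaled with TMM factors separately in each table. Levels were compared between groups only within a table, since the TGNT rats of one are different libraries from those of the other. Spreads within groups, and values centred on group means, were also set side by side across tables. Total estimated counts ran from 5848458 to 9926088 in the WTNT rats (median 6300652.7) and from 6610498 to 8117561 in the TGNT rats of the genotype table (median 7831894.38). In the treatment table they ran from 11151973 to 13481985 in the TGNT rats (median 11621745.2) and from 9215039 to 14175594 in the TGTR rats (median 12544217.9). At these depths 1 read stood for 0.102 to 0.171 RPM in the WTNT rats and for 0.0706 to 0.101 RPM in the TGTR rats. App, looked at to check the genotype labels after its values were seen, lay between 1031 and 1160 RPM in the WTNT rats and between 2071 and 2364 RPM in the TGNT rats (log2 fold change 1.00, SE 0.0555), so the 10 libraries fell on the sides their labels gave. Markers of hippocampal cells were present: 6 of 6 markers of mature neurons and 5 of 6 of dentate granule cells had reads, led by Map2 and Prox1, and the sixth granule marker had no entry. The Kcnj genes have no transcript length in the tables, so their levels were not compared with each other.

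None of the 4 GIRK genes was called in the genotype comparison, where a gene was called if its BH-adjusted p was under 0.05 and it differed 1.5-fold or more. The background there was 2 of 17168 genes (0.0116%), and 554 of 14634 genes with reads (3.79%) had an unadjusted p under 0.05 by the edgeR quasi-likelihood test. DESeq2 called 2 genes there as well, and the edgeR likelihood ratio test 4. In the treatment comparison 0 of 4 were called beside a background of 0 of 17168 (0%) by edgeR quasi-likelihood, 3 genes by DESeq2 and 5 by the edgeR likelihood ratio test. The unadjusted p was under 0.05 there in 843 of 14861 genes (5.67%), 511 higher and 332 lower, and scaling by library size alone made that split 864 and 172. The groups did not overlap for 0 of 4 GIRK genes in the genotype table (all genes 0.601%) and for 1 of 4, Kcnj9, in the treatment table (all genes 1.33%). In no setting run was any of the 4 called, since no fold reached 1.5 together with the adjusted p. Nothing is read from these counts, because the same comparisons chose the family. Of the 4 genes 3 averaged at least 10 reads per library, and Kcnj5 did not.

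**Figure D1:**
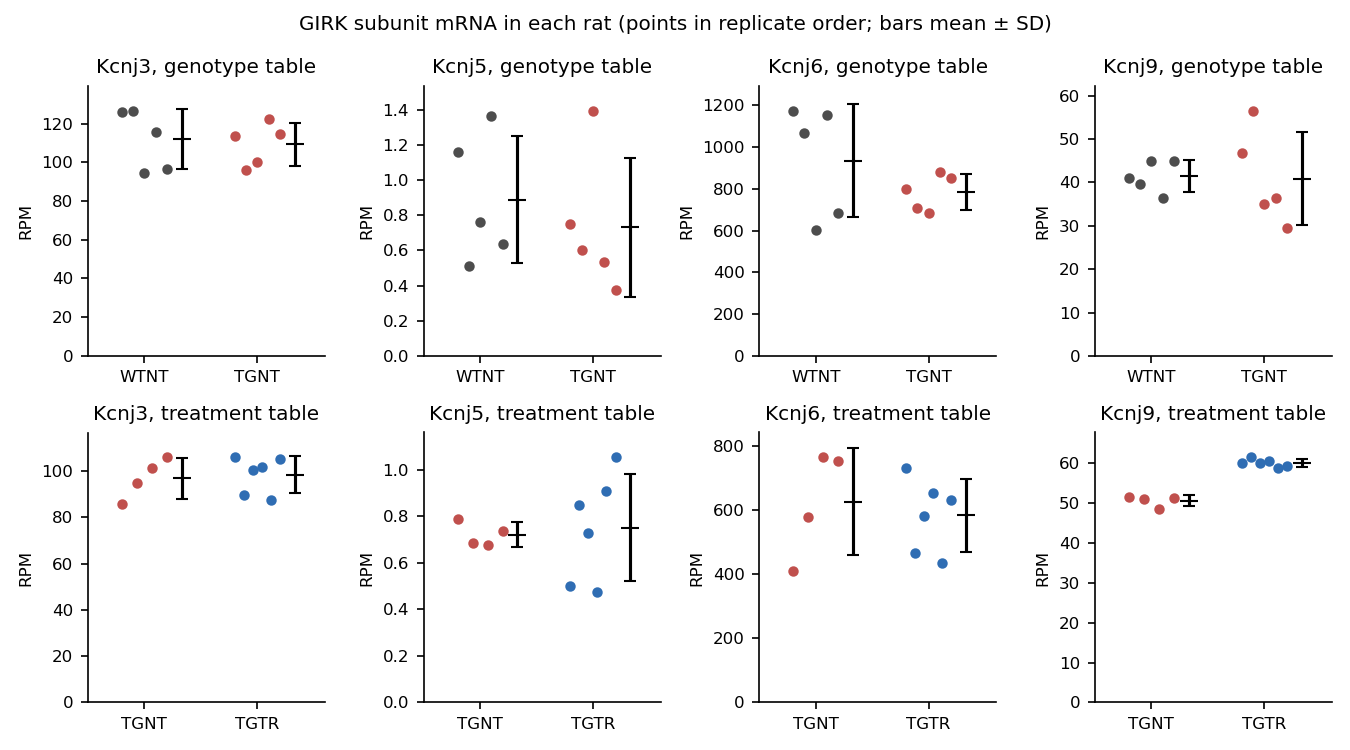
RPM of the 4 GIRK genes (y axes, starting at 0) in each rat of the genotype table (top) and the treatment table (bottom), with points in replicate order and bars for mean ± SD. Kcnj9 in the treatment table is the panel whose groups do not overlap: TGNT rats reach 51.6 RPM and TGTR rats start at 58.7 RPM.

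Kcnj3 encodes the subunit that most neuronal GIRK channels share. Its levels were 126, 127, 94.5, 116 and 96.6 RPM in the 5 WTNT rats and 114, 96.1, 99.9, 122 and 115 RPM in the 5 TGNT rats. The groups covered nearly the same range, and the log2 fold change was −0.03 (SE 0.0947, n = 5 and 5), with sign changes when single rats were left out. The 4 TGNT rats of the treatment table had 85.5, 94.8, 101.1 and 105.9 RPM, and the 6 TGTR rats ran from 87.5 through a median of 101.1 to 106 RPM. These groups overlapped too, and the log2 fold change was 0.03 (SE 0.0707, n = 4 and 6). The Kcnj3 counts, 606 to 1239 in the genotype table and 867 to 1485 in the treatment table, were whole numbers, exactly to the decimals deposited, in 10 of 10 libraries of each table, which leaves no sign of reads divided with other genes.

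Kcnj6 encodes the GIRK2 subunit, and its levels varied most widely over rats among the 3 GIRK genes with at least 10 reads on average in the WTNT group. They were 1175, 1065, 602.5, 1151 and 683.5 RPM in the WTNT rats, with a mean of 935 and an SD of 272. WTNT rats 3 and 5 stood apart, well below the other 3. The TGNT rats of that table had 797, 706, 686, 881 and 853 RPM, all inside the WTNT range (mean 785, SD 86.6). The log2 fold change was −0.25 (SE 0.16, n = 5 and 5), from −0.38 without WTNT rat 3 to −0.16 without WTNT rat 1. Fewer cells of a type and less RNA per cell cannot be told apart in such tissue samples, here and below. Among the treated and their controls, the TGNT rats had 409.9, 579, 766 and 753 RPM, and the TGTR rats ran from 436.3 through a median of 607.1 to 732.4 RPM. The TGTR rats all lay inside the TGNT range, and the log2 fold change was −0.10 (SE 0.176, n = 4 and 6). It was −0.26 without TGNT rat 1, the lowest of its group, and 0.01 without TGNT rat 3. Kcnj6 counts were whole numbers in 0 of 10 libraries of either table: some of its reads were divided with other genes, which makes its level less certain than that of Kcnj3.

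Kcnj9 encodes GIRK3, and its spread was of another kind. In the genotype table its levels were 41.1, 39.6, 45.0, 36.4 and 44.9 RPM in the WTNT rats and 46.8, 56.5, 35.1, 36.4 and 29.4 RPM in the TGNT rats. The means, 41.4 (SD 3.68) and 40.9 RPM (SD 10.8), were close, while the TGNT rats lay on both sides of the WTNT range, 2 above it and 2 below it. The log2 fold change was −0.02 (SE 0.141, n = 5 and 5) and changed sign when single rats were left out, from −0.17 without TGNT rat 2 to 0.07 without TGNT rat 5. In the treatment table the TGNT rats had 51.6, 51.0, 48.5 and 51.2 RPM, and the TGTR rats ran from 58.7 through a median of 60.02 to 61.5 RPM. All 6 TGTR rats were above all 4 TGNT rats, with a gap of 7.05 RPM between the groups. The spread within groups was small, with a coefficient of variation of 2.8% in the TGNT rats and 1.62% in the TGTR rats, against 26.4% in the TGNT rats of the genotype table. Counting error alone gives 4.1% and 3.67% at the reads of these groups of the treatment table, so the rats there differed by less than counting error. The log2 fold change was 0.25 (SE 0.0398, n = 4 and 6), a fold of 1.19 (1.16 to 1.22 at 1 SE), below the 1.5-fold of a call. It kept its sign in the 8 other settings and the 10 fits without 1 rat, from 0.23 to 0.29, the highest with library-size scaling, which moved the median of all genes to 0.04. Kcnj9 counts were whole numbers in 0 of 10 libraries of the genotype table and 1 of 10 of the treatment table, so its reads too were divided with other genes. The summed level of thalamus and habenula markers, though only 1 of the 7 genes, also did not overlap between the TGNT and TGTR rats, with values beside the other marker lists below.

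Ratios of reads inside a library do not depend on the scaling between libraries. For every 100 Kcnj3 reads, the TGNT rats of the treatment table had 48 to 60.4 Kcnj9 reads (median 51) and the TGTR rats 56.6 to 68.6 (median 59.6). On this measure the groups overlapped. For every 100 Kcnj6 reads they had 6.33 to 12.6 (median 7.8) and 8.2 to 13.4 Kcnj9 reads (median 9.85), which overlapped more widely. The reads of Kcnj6 per 100 of Kcnj3 had medians of 841 in the WTNT and 720.1 in the TGNT rats, and the WTNT range, 638 to 996, took in the TGNT range, 687 to 745. The ratio of GIRK2 to GIRK1 transcript reads thus overlapped between the genotypes as the single genes did.

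Kcnj5 was near the limit of the depth. It had 3 to 11 reads in each library of the genotype table (0.374 to 1.39 RPM) and 6 to 13 in the treatment table (0.473 to 1.05 RPM). Summed over rats this was 30 reads in the WTNT and 28 in the TGNT rats, and 34 in the TGNT and 56 in the TGTR rats, in groups of 4 and 6. The groups overlapped in both tables. The log2 fold changes, −0.21 (SE 0.428) and 0.05 (SE 0.3), were smaller than their errors, and a difference below those errors was not detectable at this depth.

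**Figure D2:**
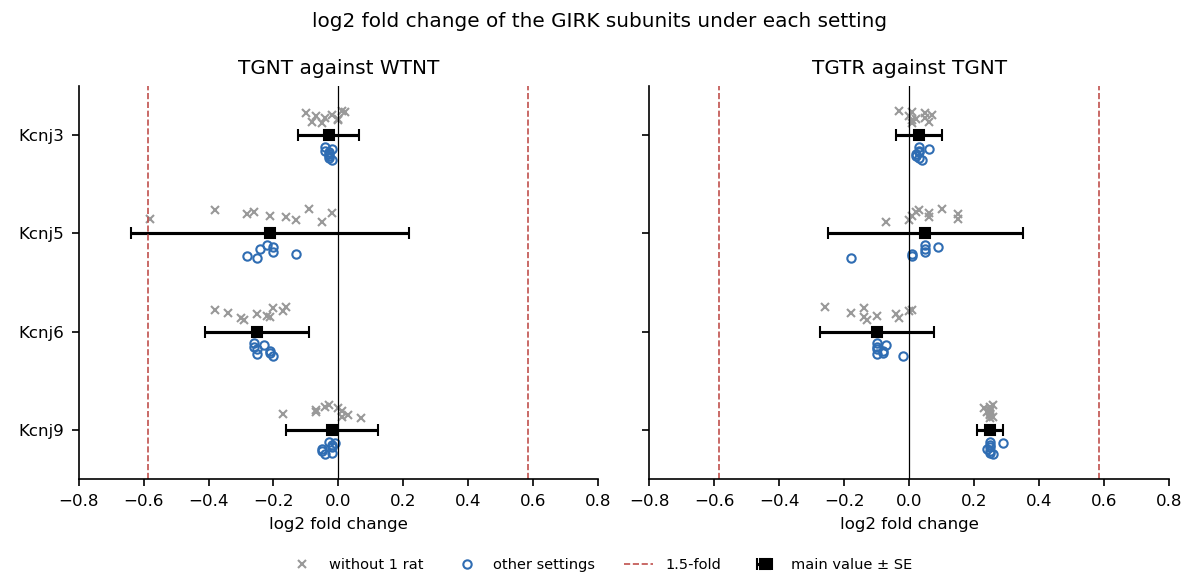
log2 fold change of the 4 GIRK genes (x axis) for TGNT against WTNT (left) and TGTR against TGNT (right): black squares with bars are the values ± SE, crosses the fits without 1 rat, circles the other settings, dashed lines 1.5-fold. Kcnj9 in the right panel stays between 0.23 and 0.29, and the crosses or circles of Kcnj3 in both panels, Kcnj9 in the left panel and Kcnj5 and Kcnj6 in the right panel lie on both sides of 0.

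As a family the GIRK genes had no common direction that held. In the genotype comparison 4 of 4 values were negative with a median of −0.12, against 0.007 for all genes with reads, and Kcnj3 and Kcnj9 turned positive without single rats. In the treatment comparison 3 of 4 values were positive with a median of 0.04, against 0.000 for all genes, and Kcnj3, Kcnj5 and Kcnj6 changed sign without single rats. Under RLE and library-size scaling each of the 4 genes kept its sign in both comparisons.

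Within groups, Kcnj3 and Kcnj6 varied together. The spread of rats around their group means was not used in choosing the family, so these relations were tested, over 6 relations of 3 genes in both tables, with 100000 permutations of rats within groups (two-sided). In the genotype table Pearson's r of the log2 levels of Kcnj3 and Kcnj6 was 0.91 over 10 rats (permutation p = 0.0029, BH-adjusted p = 0.0087) and Spearman's rho was 0.842 (permutation p = 0.0269, adjusted p = 0.0808). Rats with more Kcnj3 than their group had more Kcnj6 than their group. In the treatment table r was 0.964 over 10 rats (permutation p = 0.00051, adjusted p = 0.00306) and rho was 0.915 (permutation p = 0.00223, adjusted p = 0.0134). Without the 2 rats farthest from the median of Kcnj3, r was 0.815 in the genotype table (permutation p = 0.0701, adjusted p = 0.21) and 0.927 in the treatment table (permutation p = 0.00964, adjusted p = 0.0578). With those rats left out the relation stayed positive and no longer passed the threshold in either table; no other pair of rats was left out, so the part of those rats and that of the smaller number of rats were not told apart.

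Kcnj9 had no relation with either gene that passed. Its r with Kcnj3 was −0.467 in the genotype table (permutation p = 0.135, adjusted p = 0.202) and −0.237 in the treatment table (permutation p = 0.555, adjusted p = 0.555). With Kcnj6 it was −0.414 (permutation p = 0.0604, adjusted p = 0.121) and −0.352 (permutation p = 0.422, adjusted p = 0.506). The rho values were −0.382 and −0.236 with Kcnj3 and −0.418 and −0.345 with Kcnj6, with adjusted permutation p from 0.292 to 0.559. Without the 2 farthest rats the 4 r values lay between −0.545 and −0.407. These 4 relations were negative and did not pass the threshold. In the treatment table the spread of Kcnj9 within groups was below its counting error, which makes shared variation hard to see there.

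**Figure D3:**
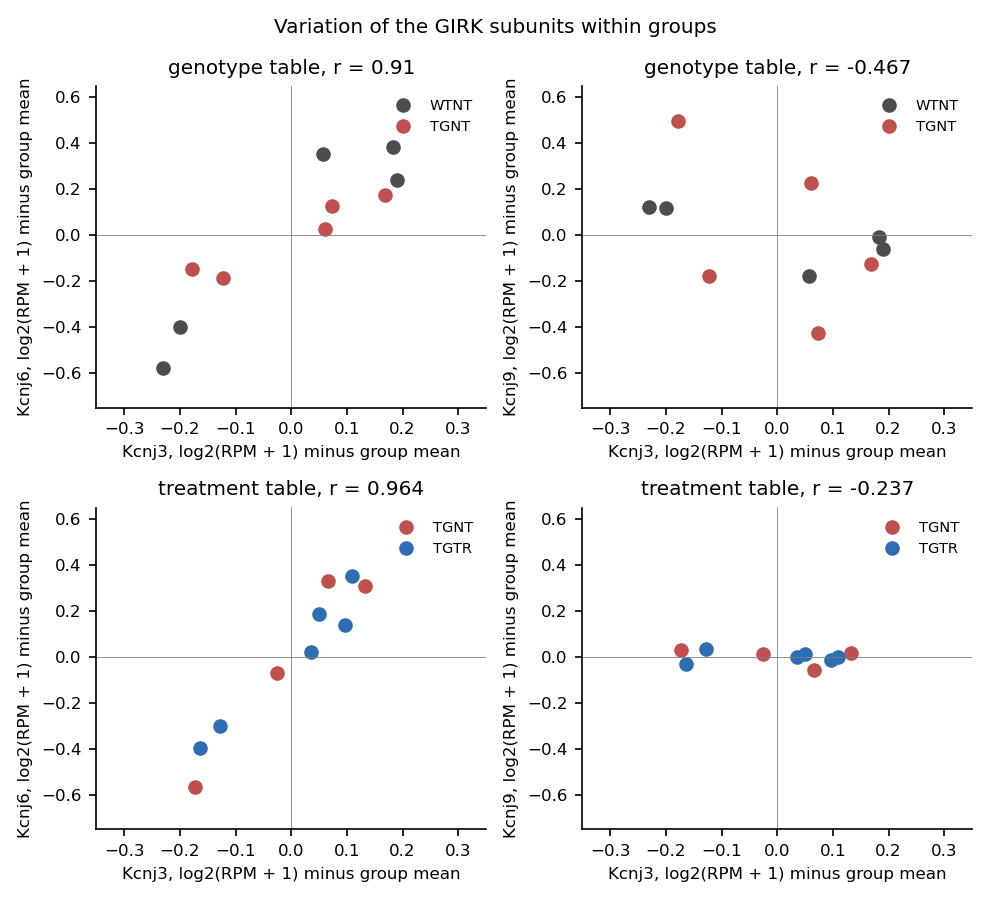
log2(RPM + 1) minus the group mean of Kcnj6 (left) and Kcnj9 (right) on the y axes against Kcnj3 on the x axes, 1 point a rat, genotype table on top and treatment table below. Kcnj6 climbs with Kcnj3 (r 0.91 and 0.964), while Kcnj9 does not (r −0.467 and −0.237) and its points in the treatment table lie close to 0.

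The sequence before the gene start was looked at for Kcnj6 and Kcnj9, of which the first varied with Kcnj3 and the second had the separated groups. In the set of promoters used here, taken from RefSeq on GRCr8, 3 of the 4 genes were found by symbol, all but Kcnj3. The 250 bases before the start are shown 5′ to 3′ on the gene's strand, with GC boxes in capitals, for Kcnj6 at chr11:47778349-47778598 (minus strand) and Kcnj9 at chr13:87320294-87320543 (minus strand).
Kcnj6: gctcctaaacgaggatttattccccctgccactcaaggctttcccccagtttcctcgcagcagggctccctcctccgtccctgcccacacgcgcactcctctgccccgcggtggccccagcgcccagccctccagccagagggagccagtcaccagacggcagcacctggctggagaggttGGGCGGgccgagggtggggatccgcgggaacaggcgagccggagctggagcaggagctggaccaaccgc
Kcnj9: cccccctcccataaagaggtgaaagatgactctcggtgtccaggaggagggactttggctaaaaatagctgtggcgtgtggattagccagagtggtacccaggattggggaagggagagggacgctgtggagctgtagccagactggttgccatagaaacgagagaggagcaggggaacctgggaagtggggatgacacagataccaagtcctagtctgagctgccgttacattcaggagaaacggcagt
The GC content was 69.2% in Kcnj6, 54.8% in Kcnj9 and 57.2% in Kcnj5, against a median of 51.2% over 33469 promoters, and the CpG counts were 16, 6 and 8 against a median of 5. Motifs were searched by their letters on both strands. The GC box, GGGCGG, occurred 1 time in Kcnj6, 69 bases before the start, 2 times in Kcnj5 and 0 times in Kcnj9, and was present in 30.5% of all promoters. The cyclic AMP response element, TGACGTCA (1.59% of promoters), the core of the antioxidant response element, TGACNNNGC (10.1%), and the E box, CACGTG (5.59%), were in none of the 3 windows. The windows of Kcnj6 and Kcnj9 thus differed in CpG count and in the GC box, as a description of letters only.

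Other genes that varied like each GIRK gene were ranked by r over all 20 rats, each gene centred on its group means, among 11341 other genes with at least 10 reads on average in both tables. Kcnj6 was most like Chn1 (r = 0.982), a regulator of Rac signalling in neurons, Wipf3 (r = 0.981) and Dagla (r = 0.978), the enzyme that makes the endocannabinoid 2-arachidonoylglycerol. Their r with Kcnj6 was between 0.975 and 0.995 in each table alone. Kcnj3 was most like Nedd4 (r = 0.947), a ubiquitin ligase, Zfp148 (r = 0.942) and Sema3c (r = 0.937), a secreted guidance cue. Kcnj6 was at place 20 for Kcnj3, and Kcnj3 at place 112 for Kcnj6 (r = 0.917). For Kcnj6, 445 genes (3.92%) had an r above 0.8, and for Kcnj3, 308 (2.72%). Each gene of the pair thus varied like many others, and how many of these were in common was not counted.

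Kcnj9 had 46 such genes (0.406%), led by Dlst (r = 0.905), Rab11fip4 (r = 0.9) and Tmem132a (r = 0.898). These likenesses came from the genotype table, where r was 0.967, 0.936 and 0.98, and not from the treatment table, where r was −0.215, 0.3 and 0.209. Within the groups of the treatment table Kcnj9 hardly varied.

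Lists of cell type markers were set beside the 3 well-measured GIRK genes, a comparison added after the values of the GIRK genes were seen. Over 84 relations (3 genes, 14 lists, 2 tables) 11 had a BH-adjusted permutation p of r under 0.05, 7 of Kcnj6, 4 of Kcnj3 and 0 of Kcnj9. By rho there was 1, and without the 2 farthest rats there were 0, although 11 of 11 kept their sign with r of 0.545 to 0.889 in size. Leaving out those rats also leaves fewer rats to test, and the parts of both in the lost calls were not tested.

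The list of CA3 pyramidal cells was the 1 list past the threshold with Kcnj3 and with Kcnj6 in both tables. It held 4 of 5 listed genes, with no entry for Nectin3, Cpne4 as the most abundant and 0 genes without reads in all rats. Its r with Kcnj6 over 10 rats was 0.958 in the genotype table (permutation p = 0.00195, adjusted p = 0.0248; rho 0.964, permutation p = 0.0037, adjusted p = 0.0819; r 0.744 without 2 rats). It was 0.87 in the treatment table (permutation p = 0.00184, adjusted p = 0.0248; rho 0.782, permutation p = 0.0144, adjusted p = 0.134; r 0.691 without 2 rats). Rats with more CA3 marker RNA thus had more Kcnj6 RNA. With Kcnj3 the r was 0.894 (permutation p = 0.00031, adjusted p = 0.0176; rho 0.903, permutation p = 0.00625, adjusted p = 0.0875; r 0.889 without 2 rats) and 0.851 (permutation p = 0.00271, adjusted p = 0.0248; rho 0.745, permutation p = 0.025, adjusted p = 0.175; r 0.659 without 2 rats).

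The summed level of the CA3 list was 568.6, 502.9, 289.8, 523.2 and 329.2 RPM in the WTNT rats and 382, 271.7, 381, 431.9 and 401.9 RPM in the TGNT rats. WTNT rats 3 and 5, the lowest for Kcnj6 in their group, were also the lowest for the CA3 list. The sums of the treatment table were 274.8, 517, 536 and 508 RPM in the TGNT rats and 246.6 to 465.6 RPM in the TGTR rats (median 390.7). TGNT rat 1 of that table and TGTR rat 5 were the lowest of their groups for both Kcnj6 and the CA3 list. Among the TGNT rats of the genotype table the lowest differed, rat 3 for Kcnj6 and rat 2 for the CA3 list. In the genotype comparison 5 of 5 CA1 markers (median −0.11) had negative log2 fold changes. So had 3 of 4 CA2 markers (median −0.14) and 3 of 4 CA3 markers (median −0.17). Log2 fold changes were positive for 6 of 6 microglia markers (median 0.09) and 6 of 7 interneuron markers (median 0.12). They were also positive for 6 of 7 thalamus and habenula markers (median 0.17). A list not described here had only negative ones, and the other lists had both signs. The part of tissue make-up in the Kcnj6 differences was not tested.

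The list of GABA interneurons ran the other way for Kcnj6 and Kcnj3. All 7 of its genes had reads, Gad1 the most abundant, and its r with Kcnj6 in the genotype table was −0.972 (permutation p = 0.00042, adjusted p = 0.0176; rho −0.976, permutation p = 0.00042, adjusted p = 0.0353; r −0.845 without 2 rats). Its sum was 512, 559, 661, 526 and 658 RPM in the WTNT rats, highest in rats 3 and 5, and 586 to 642 RPM in the TGNT rats. In the treatment table, where its sum was 473 to 599 RPM in the TGNT and 524 to 634 RPM in the TGTR rats, r was −0.781 (permutation p = 0.0229, adjusted p = 0.107; rho −0.709, permutation p = 0.0446, adjusted p = 0.221). With Kcnj3 the r was −0.885 in the genotype table (permutation p = 0.00385, adjusted p = 0.0294; rho −0.806, permutation p = 0.0407, adjusted p = 0.213; r −0.676 without 2 rats) and −0.622 in the treatment table (permutation p = 0.081, adjusted p = 0.227). Both genes were thus low where interneuron RNA was high in the genotype table, and the relations did not pass in the other.

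Kcnj6 passed with 3 more of the lists named here, each in 1 table. With CA2 pyramidal cells, 4 of 5 genes led by Necab2, r was 0.918 in the genotype table (permutation p = 0.00295, adjusted p = 0.0248; rho 0.915, permutation p = 0.0039, adjusted p = 0.0819; r 0.552 without 2 rats). With endothelium and pericytes, 6 of 6 genes led by Flt1, it was −0.878 in the genotype table (permutation p = 0.00247, adjusted p = 0.0248; rho −0.879, permutation p = 0.00552, adjusted p = 0.0875; r −0.545 without 2 rats). With dentate granule cells it was 0.883 in the treatment table (permutation p = 0.00103, adjusted p = 0.0248; rho 0.855, permutation p = 0.00305, adjusted p = 0.0819; r 0.699 without 2 rats). In the other table these 3 relations did not pass. With CA2 cells r was 0.735 in the treatment table (adjusted permutation p = 0.113, r −0.0269 without 2 rats). For endothelium and pericytes it was −0.497 there (adjusted permutation p = 0.304, r 0.128 without 2 rats). For dentate granule cells it was 0.836 in the genotype table (adjusted permutation p = 0.0879, r 0.331 without 2 rats). Kcnj6 thus moved with several lists at once, these 3 past the threshold in 1 table each. The last 2 of the 11 relations, both in the treatment table, are in the plot of r by marker list, and their r was above those printed here for that table, so the lists described are not the leading ones of that table.

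Kcnj9 had 0 of 28 relations past the threshold. Its r with the CA3 list was −0.379 in the genotype table (permutation p = 0.0649, adjusted p = 0.188) and −0.0377 in the treatment table (permutation p = 0.928, adjusted p = 0.951). The largest in the treatment table was with microglia, 6 of 6 genes, at 0.84 (permutation p = 0.00868, adjusted p = 0.057; rho 0.661, permutation p = 0.0382, adjusted p = 0.213; r 0.49 without 2 rats). Choroid plexus markers, 8 of 8 with reads and led by Ttr, summed to 2834 RPM in TGTR rat 5 and 140.7 RPM in TGTR rat 6, against 8.40 to 10.5 RPM in TGTR rats 1 to 4 and 10.7 to 23.1 RPM in the TGNT rats. Kcnj9 was above all TGNT rats in TGTR rats 1 to 4 as in rats 5 and 6, and lowest of the group in rat 5, at 58.7 RPM. Within groups its r with the choroid plexus list in the treatment table was −0.495 (permutation p = 0.0437, adjusted p = 0.147). The rho was −0.37 (permutation p = 0.27, adjusted p = 0.539), and r was −0.603 without 2 rats. The part of choroid plexus tissue in the Kcnj9 difference was not tested.

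The summed level of the markers of thalamus and habenula did not overlap between the TGTR and TGNT rats, and of its genes this held for Slc17a6 alone. Of 8 listed genes 7 had reads, with no entry for Rora, and 6 of the 7 had a positive log2 fold change (median 0.25). Their sum was 68.1, 53.6, 60.7 and 64.9 RPM in the TGNT rats and 72.6 to 103 RPM in the TGTR rats (median 77.7). The groups overlapped for 6 of the 7 genes. Slc17a6, a vesicular glutamate transporter and the most abundant of them, was at 17.0 ± 3.81 RPM in the TGNT and 31.0 ± 5.49 RPM in the TGTR rats, higher in 6 of 6 TGTR rats than in any TGNT rat (log2 fold change 0.87, SE 0.156, adjusted p 0.4 by edgeR quasi-likelihood). Within groups the r of this list with Kcnj9 was −0.337 in the treatment table (permutation p = 0.322, adjusted p = 0.574; rho −0.248, permutation p = 0.529, adjusted p = 0.767; r −0.28 without 2 rats). The sum of the list and Kcnj9 thus both separated the groups, while their relation within groups, where Kcnj9 varied less than counting error, did not pass. Markers of the subiculum and adjoining cortex, 4 of 6 with reads and led by Fn1, summed to 168.7 to 207.3 RPM in the TGNT and 183.1 to 306 RPM in the TGTR rats, with 4 of 4 log2 fold changes positive (median 0.45). Nr4a2 (0.44, SE 0.119) and Tbr1 (0.46, SE 0.143), named after their values were seen, had groups that overlapped. Among other lists in the treatment comparison, 8 of 8 markers of choroid plexus (median 2.52) and 3 of 3 of blood with reads (5 listed, median 0.96) had positive log2 fold changes. The choroid plexus sum was high in TGTR rats 5 and 6 alone. It was 8.40 to 10.5 RPM in TGTR rats 1 to 4, below the 10.7 to 23.1 RPM of the TGNT rats. The blood list, led by Hba1, summed to 1286 RPM in TGTR rat 4 and to 165 to 258 RPM in the 9 other rats, and Kcnj9 in TGTR rat 4 was 60.4 RPM, inside the range of its group. Positive too were 6 of 6 markers of endothelium and pericytes (median 0.15), 6 of 7 of GABA interneurons (median 0.16) and 4 of 5 of CA1 pyramidal cells (median 0.16). Negative were 4 of 4 of CA3 pyramidal cells (median −0.26), 4 of 4 of CA2 pyramidal cells (median −0.17) and 6 of 6 of astrocytes (median −0.05). So were 5 of 6 of mature neurons (median −0.03), 4 of 5 of dentate granule cells (median −0.05) and 4 of 6 of microglia (median −0.02). A further list, not described here, had only positive log2 fold changes. In several lists besides choroid plexus most signs thus went one way between these groups. The astrocyte, mature neuron, dentate granule and microglia lists had medians of only −0.05 to −0.02. Each of these had 0 genes at an unadjusted p under 0.05 by edgeR quasi-likelihood. The part of tissue make-up in the Kcnj9 difference was not tested.

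**Figure D4:**
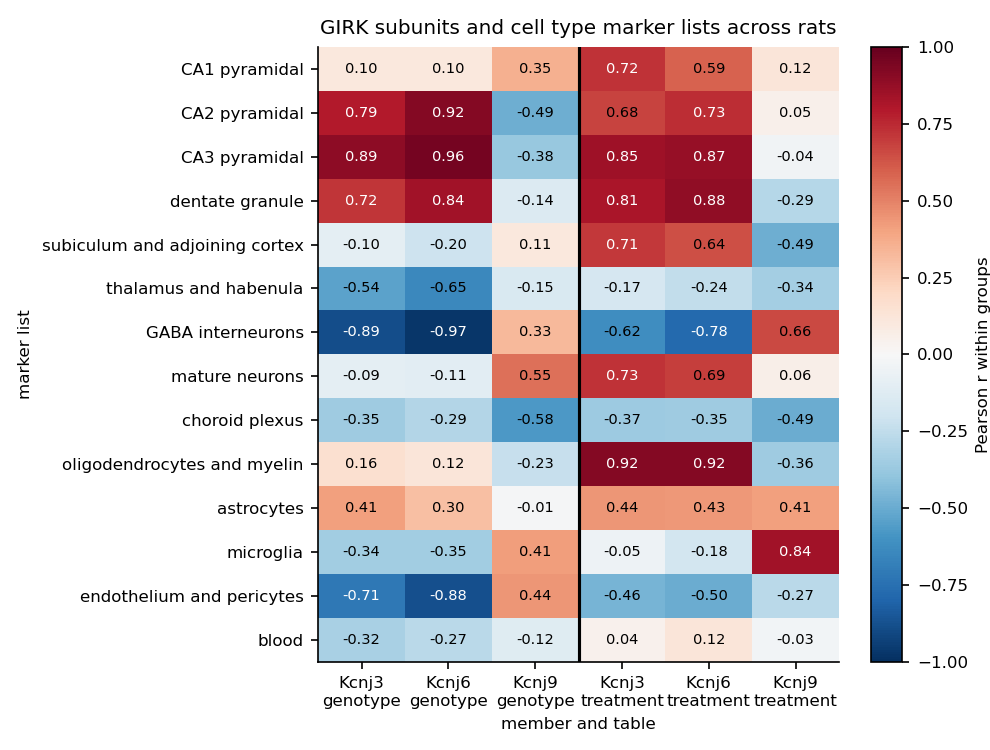
Pearson's r within groups of Kcnj3, Kcnj6 and Kcnj9 (columns, genotype table left and treatment table right) with 14 cell type marker lists, over 10 rats a table; colour runs from −1 (blue) to 1 (red). Kcnj3 and Kcnj6 show like columns, with 0.894 and 0.958 for the CA3 list in the genotype table, and Kcnj9 a different one.

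The other genes of the pathway were taken from 6 lists of 103 genes, of which 101 had reads and Gng4 and Kctd12 had no entry. In the genotype comparison 0 of the 101 were called and 2 (1.98%) had an unadjusted p under 0.05 by the edgeR quasi-likelihood test, beside 3.79% of all genes, and by DESeq2 it was 1; 0 were called in any of 19 settings. The pair, named after their values were seen for Grm7, was the glutamate receptor gene Grm7 (63.6 ± 4.03 RPM in WTNT and 69.8 ± 1.93 RPM in TGNT rats, mean ± SD, n = 5 and 5) and Kcnj11, the pore of ATP-sensitive potassium channels (24.0 ± 2.45 and 19.4 ± 3.43 RPM). Their log2 fold changes were 0.14 (SE 0.0626) and −0.30 (SE 0.12), and both had an adjusted p of 1 by edgeR quasi-likelihood. The count depended on single rats: it was 10 without WTNT rat 3, 7 without WTNT rat 5, 4 without TGNT rat 2, 1 without WTNT rat 1, 2 or 4, and 0 without TGNT rat 3 or 5. The count over all genes moved the same way in these fits, from 554 to 986 without WTNT rat 3, 877 without WTNT rat 5, 759 without TGNT rat 2, 429 to 458 without WTNT rat 1, 2 or 4, and 358 and 454 without TGNT rats 3 and 5. The median log2 fold change of the lists together was 0.03, and that of all genes 0.007.

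In the treatment comparison 0 of the 101 genes were called and 13 (12.9%) had an unadjusted p under 0.05 by the edgeR quasi-likelihood test, 11 higher and 2 lower, beside 5.67% of all genes. DESeq2 gave 12 and the edgeR likelihood ratio test 14, and 0 of the genes were called in any of 19 settings. The count was 7 without TGNT rat 2 and 8 without TGNT rat 3, where that of all genes was 571 and 654 in place of 843. The median log2 fold change was 0.02, and that of all genes 0.000. The groups did not overlap for 3 genes (2.97%, all genes 1.33%): Sstr2, Kcnj12 and, named after its values were seen, Kcnj8. These lists were chosen with earlier results known, and nothing particular to them is read from the shares.

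Receptors that release the G protein subunits came first. Of 28 genes with reads, 1 was higher at an unadjusted p under 0.05 in the genotype comparison (Grm7, above), and 2 were higher and 1 lower in the treatment comparison, with list medians of 0.07 and 0.03. Without Drd4, which had 1 to 6 reads over each group, the medians were 0.08 and 0.03. The GABA-B receptor gene Gabbr1 was the most abundant by reads, with 1206 ± 94.9 RPM in the WTNT and 1214 ± 102 RPM in the TGNT rats, and 1395 ± 89.9 RPM in the TGNT and 1348 ± 73.3 RPM in the TGTR rats. Its partner Gabbr2 had log2 fold changes of −0.10 (SE 0.0629) and −0.09 (SE 0.056), and the cannabinoid receptor gene Cnr1 0.13 (SE 0.0805) and −0.04 (SE 0.0587). The most abundant receptors of the list thus had log2 fold changes of at most 0.13 in size.

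Sstr2, a somatostatin receptor that opens GIRK channels, had groups that did not overlap in the treatment table. It was at 12.6 ± 0.658 RPM in the TGNT rats (12.02 to 13.4) and 17.9 ± 1.75 RPM in the TGTR rats (15.6 to 20.4), higher in 6 of 6 TGTR rats than in any TGNT rat. The log2 fold change was 0.51 (SE 0.0887), and the adjusted p of 0.4 by edgeR quasi-likelihood did not pass. Over all settings the adjusted p of Sstr2 ran from 0.00386 by DESeq2 to 1, and with a fold below 1.5 it was called in 0 of 19 settings. In the genotype table Sstr2 had a log2 fold change of 0.06 (SE 0.16). The other receptors at an unadjusted p under 0.05 in the treatment table, named after their values were seen, were Drd2 (log2 fold change 0.78, SE 0.269) and Npy2r (−0.45, SE 0.2).

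Of 18 G protein subunit genes with reads, 0 in the genotype and 1 in the treatment comparison had an unadjusted p under 0.05 by edgeR quasi-likelihood. That gene was Gng2, a gamma subunit, at 403 ± 16.6 RPM in the TGNT and 363 ± 24.8 RPM in the TGTR rats (log2 fold change −0.15, SE 0.0578, adjusted p 0.964 by edgeR). Gnb1, a beta subunit, had log2 fold changes of 0.01 (SE 0.0503) and −0.00 (SE 0.0441), and Gnao1, the alpha subunit of Go, had −0.02 in both comparisons. List medians were 0.01 and −0.01. The 17 others thus had an unadjusted p of 0.05 or more in both comparisons.

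RGS proteins speed the closing of GIRK channels, and KCTD proteins bind GABA-B receptors. With these, the list holds other G protein modulators such as Gpr158. Of its 25 genes with reads, 0 in the genotype and 5 in the treatment comparison had an unadjusted p under 0.05 by edgeR quasi-likelihood, all 5 higher, with list medians of −0.01 and 0.02. Rgs4 was at 64.5 ± 42.0 RPM in the TGNT and 119.7 ± 48.3 RPM in the TGTR rats (log2 fold change 0.89, SE 0.37, adjusted p 0.964 by edgeR), and its groups overlapped, from 35.9 to 126 and from 62.8 to 189 RPM. Over all settings its log2 fold change there ran from 0.67 to 1.45. The other 4, named after their values were seen, were Rgs5 (0.35), which is also on the list of endothelium and pericytes, Rgs6 (0.22), Rgs17 (0.24) and Kctd8 (0.55). Rgs7, a neuronal RGS gene that acts on GIRK channels, had −0.01 (SE 0.0559) and −0.00 (SE 0.0499), and its binding partner Gpr158 −0.04 (SE 0.071) and −0.04 (SE 0.0739). Rgs7 and Gpr158 were thus not among the genes at an unadjusted p under 0.05.

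Sorting and scaffold genes, 8 with reads, had 0 and 1 with an unadjusted p under 0.05 by edgeR quasi-likelihood, the 1 being Dlg1 (0.22, SE 0.0987), named after its values were seen. Dlg4, the synaptic scaffold PSD-95, had log2 fold changes of −0.12 (SE 0.0943) and −0.04 (SE 0.0678), Ncam1 had 0.05 in both comparisons, and the retromer gene Vps35 had 0.05 and −0.02. Of 11 enzymes of PIP2 turnover, 0 and 0 had an unadjusted p under 0.05, and Synj1, Pi4ka and Plcb1 lay between −0.08 and 0.04. The list medians were 0.02 and −0.00 for sorting genes and 0.04 and −0.04 for PIP2 enzymes. Both lists thus had medians close to 0.

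The nearest relatives of the GIRK genes, the other inward rectifiers, had 11 genes with reads. In the genotype comparison 1 of them had an unadjusted p under 0.05 (Kcnj11, above), and in the treatment comparison 3, all higher, with list medians of −0.01 and 0.16. Without Kcnj1, which had 0 to 2 reads over each group, the medians were 0.04 and 0.11. Kcnj12 was at 7.85 ± 1.32 RPM in the TGNT and 11.1 ± 1.14 RPM in the TGTR rats, higher in 6 of 6 TGTR rats than in any TGNT rat (log2 fold change 0.50, SE 0.125, adjusted p 0.858 by edgeR, 0.188 to 1 over all settings). Kcnj4 was at 76.2 ± 4.52 and 84.8 ± 5.65 RPM (0.16, SE 0.0587, adjusted p 0.964 by edgeR). Kcnj13, a channel of the choroid plexus named after its values were seen, had a log2 fold change of 3.14 (SE 1.32) that rested on TGTR rat 5, with 39.98 RPM against at most 1.79 RPM in the other rats, and it was 0.50 (SE 0.301) without that rat. Kcnj11, whose channels diazoxide opens, had 0.19 (SE 0.109) in the treatment comparison.

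On the chromosome Kcnj9 lies between Igsf8 and Kcnj10, and Igsf8 was looked at for that reason, after the values of Kcnj9 were seen. Igsf8 was at 118 ± 11.9 RPM in the TGNT and 128 ± 15.4 RPM in the TGTR rats (log2 fold change 0.11, SE 0.0932), with groups that overlapped. Kcnj10, the inward rectifier of astrocytes, had 80.3 ± 9.39 and 78.5 ± 8.18 RPM (−0.03, SE 0.088), also with overlap. The neighbours thus did not share the separated groups of Kcnj9.

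**Figure D5:**
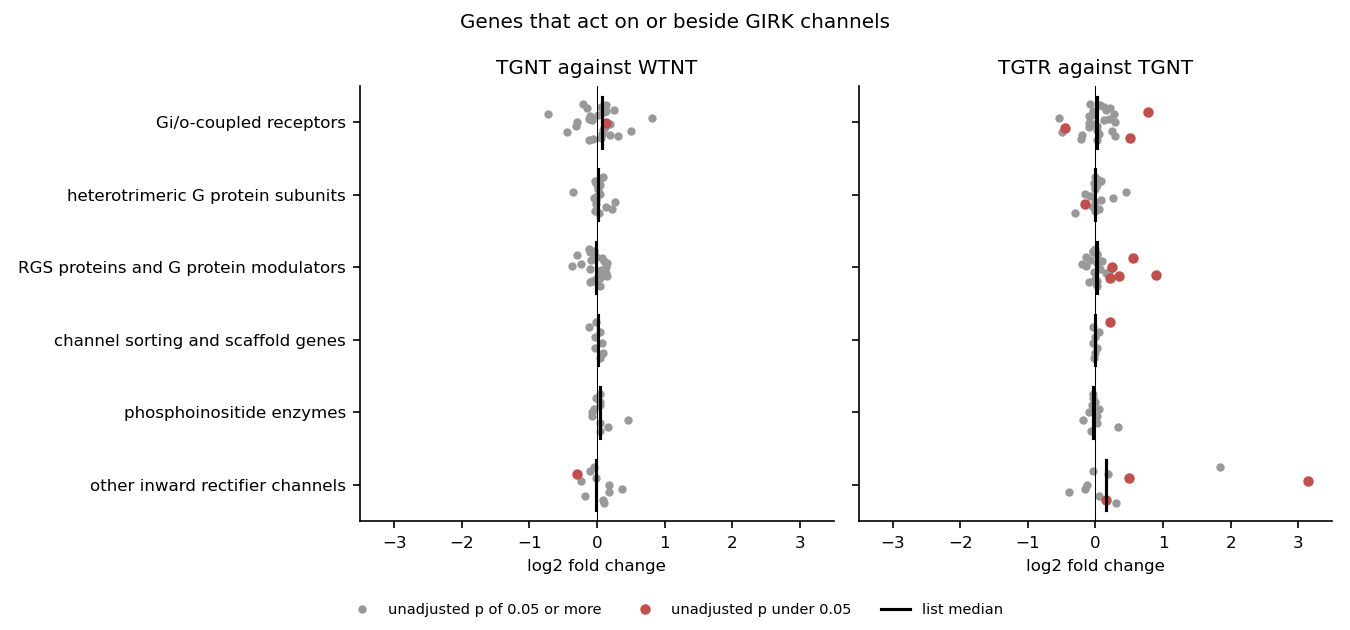
log2 fold change (x axis) of each gene on 6 lists of the GIRK pathway for TGNT against WTNT (left) and TGTR against TGNT (right), with red points for an unadjusted p under 0.05 and black lines for list medians. The right panel has 13 red points, 11 of them above 0; the point at 3.14 is Kcnj13, and the grey point at 1.85 is Kcnj1, with 0 and 2 reads.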

How the data were processed

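Hippocampal mRNA of 20 rats was sequenced by the authors, 1 library a rat. The submitters' processing notes name bcl2fastq 2.17, Bowtie2 2.1.0, RSEM 1.2.15, edgeR and the genome build rn6. The deposited count tables hold RSEM expected counts, that is estimated counts per gene symbol, and the deposited signal tables hold RPM (reads per 1000000) scaled by the authors with TMM factors in each table. Every column matched a sample (0 columns without one).

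Counts were rounded and fitted per table with TMM factors and the edgeR quasi-likelihood test over all 17168 genes, with BH adjustment over all of them; a call needed an adjusted p under 0.05 and a fold of at least 1.5. Genes with reads in at least 1 library of a table were the base for shares at an unadjusted p under 0.05. The SE of an edgeR log2 fold change was its size divided by the square root of the F statistic of the fit, not a separate estimate. For the 4 GIRK genes it serves as a description only. The p-values of the fits weigh a difference between groups against the variation between rats, counting error included. The permutation p-values concern relations between levels within groups. Correlations used log2(RPM + 1) centred on group means, with 100000 permutations within groups, whose smallest p is 1e-05. R 4.3.3, edgeR 4.0.16, limma 3.58.1 and DESeq2 1.42.0 were used, and the code was tested on simulated data.

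Named were the 4 GIRK genes, the 3 most abundant genes of each pathway list, listed genes called or at an unadjusted p under 0.05 with groups that did not overlap, the 3 genes most like each GIRK gene, and leading markers. The GIRK genes and all lists were chosen with earlier results of these data known. Alternatives were RLE factors, library size alone, DESeq2, the edgeR likelihood ratio test, limma-trend with pseudocounts of 1 and 0.1, the filterByExpr filter, replicate number as a block, and leaving out each rat. The sample titles do not say that replicate numbers pair rats, so no block was used in the main fit. Libraries of the same number were most alike in 2 of 5 and 0 of 4 cases, which cannot show whether rats were paired. Marker correlations were added after the data were seen.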

Additional observations from a re-analysis of the deposited data

How the results depend on the processing

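The sign of Kcnj9 in the treatment comparison and of Kcnj5 and Kcnj6 in the genotype comparison held in each setting run. Kcnj9 in the treatment comparison was 0.29 with library-size scaling. With replicate number as a block, Kcnj5 in the treatment comparison was −0.18 and 1 gene was called there. The pathway counts at an unadjusted p under 0.05 were then 4 (genotype) and 6 (treatment). Whether the numbers pair rats is not known. Genes called were 4 by the edgeR likelihood ratio test in the genotype comparison, and 3 by DESeq2 and 5 by the likelihood ratio test in the treatment comparison. The pathway count of the genotype comparison, 2, was 1 with RLE factors, DESeq2 and the likelihood ratio test and 4 with limma-trend at either pseudocount. Without 1 rat it ran from 0 to 10, and that of the treatment comparison, 13, from 7 to 19.

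Log2 fold changes without 1 rat ran in the genotype comparison from −0.10 to 0.02 (Kcnj3), −0.58 to −0.02 (Kcnj5), −0.38 to −0.16 (Kcnj6) and −0.17 to 0.07 (Kcnj9). In the treatment comparison they ran from −0.03 to 0.07, −0.07 to 0.15, −0.26 to 0.01 and 0.23 to 0.26. The r of Kcnj3 with Kcnj6 without the 2 farthest rats was 0.815 and 0.927. The cause was not tested. Depth limits Kcnj5, with 3 to 13 reads a library and no value under filterByExpr.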
